A study of Homo sapiens with 39 samples.

Results

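The HOX genes described here are the 39 protein-coding genes named HOXA, HOXB, HOXC or HOXD with a number from 1 to 13, out of 60671 genes in the deposited table. They were chosen by name and annotated type alone. HOX genes encode homeodomain transcription factors that set identity along the head-to-tail axis of the embryo. They sit side by side in 4 clusters, and low-numbered genes act toward the head while high-numbered genes act toward the tail and in the outer limb. Adult skin cells keep part of the HOX pattern of the body site they came from, Polycomb complexes hold silent HOX genes off, Trithorax complexes keep active ones on, and PBX, MEIS and PKNOX proteins bind DNA together with HOX proteins.

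RNA was sequenced from a pair of human melanoma cell lines, A375 and WM115, either unedited (wild type, WT) or as single clones lacking a stretch of SOX10 regulatory DNA called R1 or R4. A375 gave 4 WT libraries, 3 of clone 1.1 and 4 of clone 1.2 (both R1 deletions), and 4 of clone 4.1 and 3 of clone 4.2 (both R4 deletions). WM115 gave 4 WT libraries, 5 of clone 1.1 and 3 of clone 1.2 (R1), 3 of clone 4.1 and 3 of clone 4.2 (R4), and 3 of clone 1.3. The title of clone 1.3 places it with R1 while its genotype label says R4, so it was kept apart and left out of comparisons between regions. Libraries of 1 clone repeat that clone, each line is a single line, and nothing in the labels says that libraries came from separate cultures, so p-values measure the spread between these libraries. Levels are in TPM, a unit corrected for transcript length and library total, so that genes can be compared, and the sequencing depth behind them is unknown.

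In A375, SOX10 was at 381 to 876 TPM in every library, and in WM115 at 9.56 to 553 TPM. The lowest of these was WM115 clone 1.2 replicate 3, which stood apart, and the main results that rest on that library are given with and without it. Genes at 1 TPM or more numbered 14128 to 16140 per A375 library and 14084 to 15528 per WM115 library. The mitochondrially encoded share of TPM was 0.968% to 4.92% over the A375 libraries and 4.71% to 19.4% over those of WM115. Of 8 melanocytic markers, TYR, DCT, TYRP1 and MLANA were under 1 TPM in every A375 library, and all 8 were above 1 TPM in at least some WM115 libraries. SOX10 is among the 8, so their calls and sums include the gene whose regulatory DNA was deleted. In A375 the 8 summed to 405 to 967 TPM per library, beside SOX10 alone at 381 to 876 TPM. Summed over 5 immune markers, levels were 0.076 to 0.775 TPM in A375 and 0.049 to 10.99 TPM in WM115.

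On GRCh38 with GENCODE 29 positions, the HOXA cluster (11 genes) lies on the minus strand of chromosome 7 from 27092993 to 27200106, and the HOXB cluster (10 genes) on the minus strand of chromosome 17 from 48528526 to 48729178. The HOXC cluster (9 genes) lies on the plus strand of chromosome 12 from 53938765 to 54056030. The HOXD cluster (9 genes) lies on the plus strand of chromosome 2 from 176092891 to 176190907. Exons of neighbouring genes overlap in these clusters. Of the 39 HOX genes, 19 share exon bases with a gene on the opposite strand and 18 with a gene on the same strand, while 14 share none. Whether the libraries mark strand is not stated, so reads of a HOX gene and its antisense partner cannot be told apart.

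The HOXD cluster held the clearest contrast between the lines, so 3 of its RefSeq promoter windows are shown here. The HOXD11 and HOXD3 windows lie inside the GENCODE 29 spans of their genes, which start at 176104216 and 176136612. HOXD11 and HOXD3 were low in A375 and higher in WM115, and HOXD13 was present in both. Each sequence is the 250 bases before the RefSeq start of the gene on the plus strand (GRCh38.p14), 5′ to 3′, and none of the 3 overlaps a GENCODE 29 exon. Capitals mark TAAT, the core that many homeodomains recognise, on either strand, with overlapping copies joined.
HOXD13, chr2:176092471-176092720: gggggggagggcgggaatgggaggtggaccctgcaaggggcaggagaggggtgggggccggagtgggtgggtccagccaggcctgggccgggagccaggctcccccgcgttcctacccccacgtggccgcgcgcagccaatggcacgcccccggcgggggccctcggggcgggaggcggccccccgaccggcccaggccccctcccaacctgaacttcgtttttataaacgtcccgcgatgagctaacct
HOXD11, chr2:176107030-176107279: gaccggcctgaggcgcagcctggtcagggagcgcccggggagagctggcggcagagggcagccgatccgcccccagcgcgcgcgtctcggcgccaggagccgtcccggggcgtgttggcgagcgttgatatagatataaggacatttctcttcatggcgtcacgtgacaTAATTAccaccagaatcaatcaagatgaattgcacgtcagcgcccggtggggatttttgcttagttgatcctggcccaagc
HOXD3, chr2:176157057-176157306: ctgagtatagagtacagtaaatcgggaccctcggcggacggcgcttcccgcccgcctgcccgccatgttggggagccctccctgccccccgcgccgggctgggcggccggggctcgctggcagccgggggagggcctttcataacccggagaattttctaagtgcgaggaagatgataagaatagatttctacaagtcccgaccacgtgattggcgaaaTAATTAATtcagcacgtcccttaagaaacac

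The HOXD13 window holds 0 copies of TAAT, the HOXD11 window 2 and the HOXD3 window 3, counted on both strands. The motif stands in 47.4% of 35116 RefSeq promoter windows of the same length. The GC box GGGCGG occurs 2, 1 and 2 times in the windows of HOXD13, HOXD11 and HOXD3, and is present in 42.6% of all windows. TATAAA had 2 matches before HOXD13, 1 per strand and overlapping in a single stretch (tttataaa). It had 0 before HOXD11 and HOXD3, and is present in 10.7% of all windows. GC content is 74.0%, 61.6% and 59.2% in the 3 windows, against a median of 58.0% over all of them. A window was at hand for 20 of the 39 genes. In the other HOXD windows TAAT was counted 1 time for HOXD12, 1 for HOXD10, 0 for HOXD8, 5 for HOXD4 and 1 for HOXD1. These matches describe the letters only, and a link to the levels was not tested.

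Both lines expressed most of the family. A mean of at least 1 TPM was reached by 29 of the 39 genes in A375 WT and by 35 in WM115 WT. The median of those was 11.5 TPM in A375 WT and 9.11 TPM in WM115 WT, below the median of all protein-coding genes at 1 TPM or more, which was 19.7 and 20.9 TPM. HOXC10, a lumbar-level gene and the highest in A375 WT, was at 49.8 ± 6.06 TPM (SD, n = 4) in A375 WT and 38.3 ± 2.97 (n = 4) in WM115 WT. HOXB2, which patterns the hindbrain and had the highest mean in WM115 WT, was at 44.4 ± 5.10 and 43.5 ± 11.1 TPM. HOXB7, a gene known for driving fibroblast growth factor expression in melanoma, stood at 37.6 ± 5.76 and 41.8 ± 4.43 TPM. Neither HOXB2 nor HOXB7 differed between the WT groups beyond the spread of their libraries (limma adjusted p = 0.824 and 0.416), and HOXC10 was lower in WM115 by less than the minimum size (log2 difference -0.37, SE 0.13, limma adjusted p = 0.0404).

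**Figure D1:**
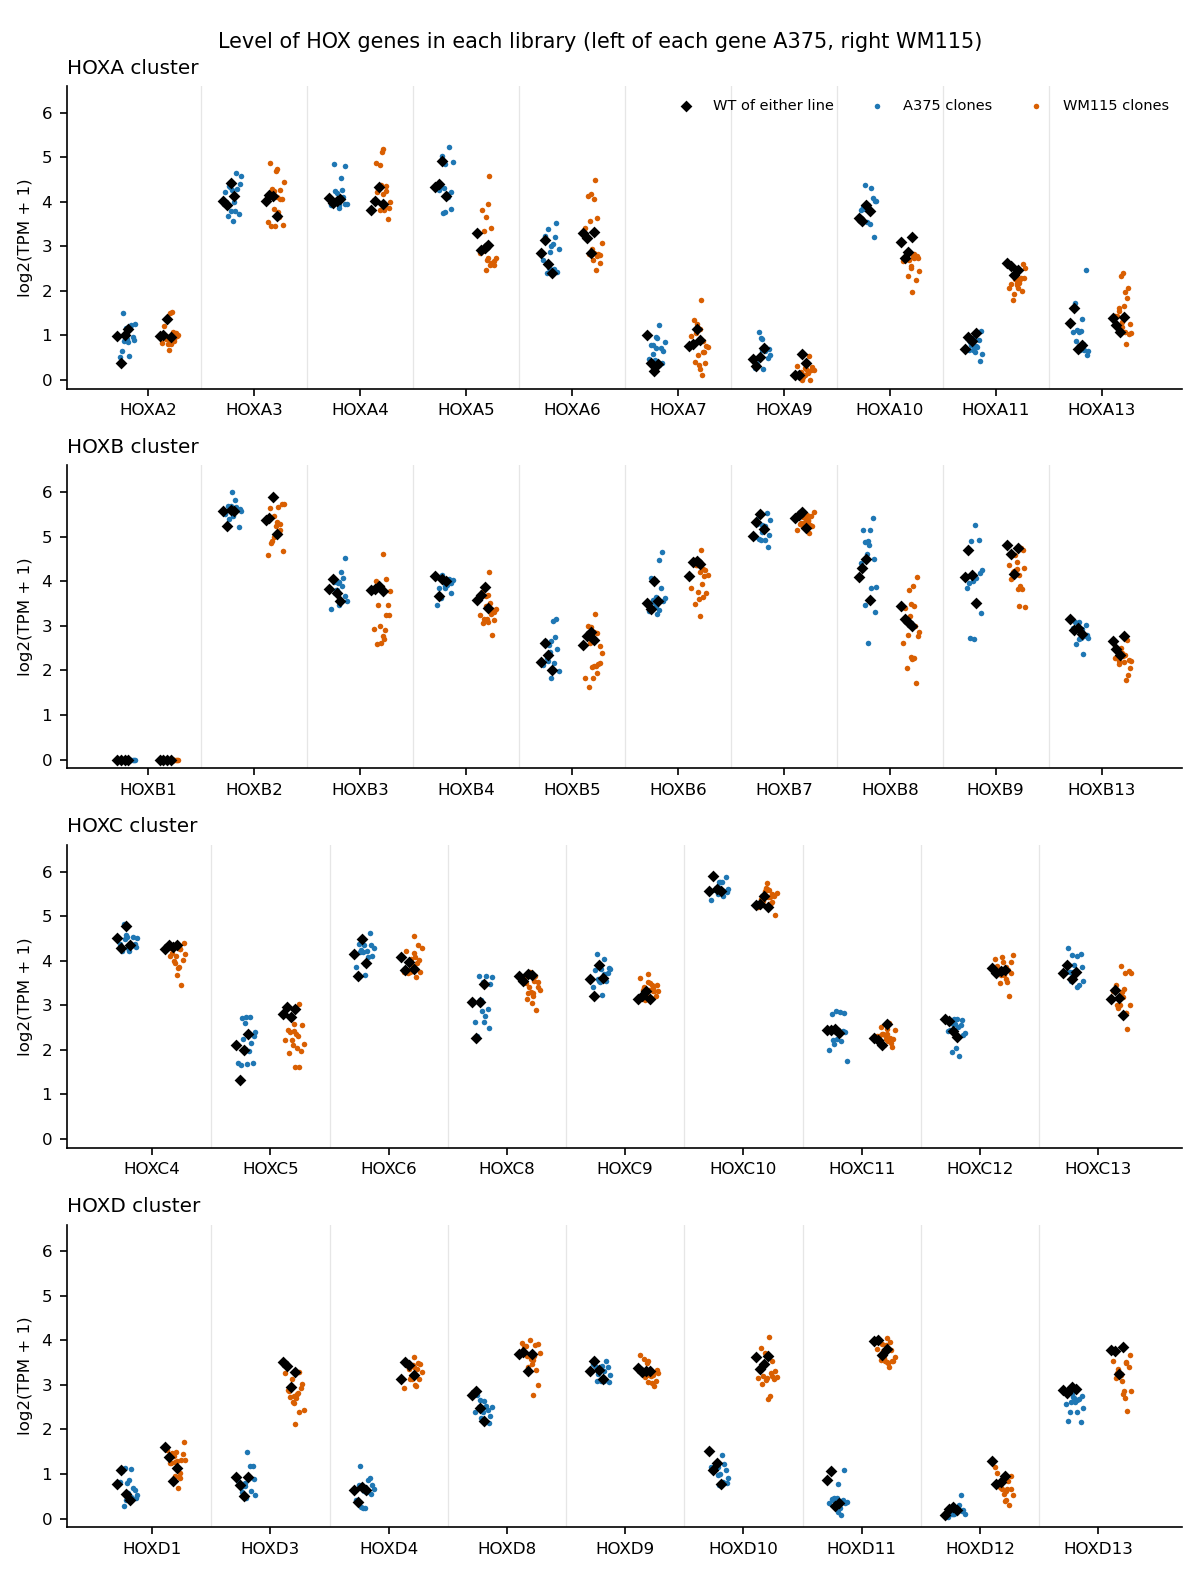
Level of 38 of the 39 HOX genes on the log2(TPM + 1) scale (y axis) in every library, 1 panel per cluster; for each gene the left column is A375 and the right column WM115, diamonds are WT and circles are clones. HOXB1 is at 0 throughout, HOXC10, HOXB2 and HOXB7 lie at the top, and HOXD3, HOXD4, HOXD10 and HOXD11 separate the lines with clones and WT together.

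At the other end, HOXB1, the gene of a single hindbrain segment, was listed at 0 in all 39 libraries and was the only member under 1 TPM everywhere. HOXA9, a gene of blood progenitors and of the trunk, was at 0.192 to 1.097 TPM in A375 and at 0 to 0.507 TPM in WM115. HOXD12 reached 0.447 TPM at most in A375 and 1.44 TPM in WM115, and HOXA7 1.36 and 2.496 TPM. The caudal-type genes CDX1, CDX2 and CDX4, upstream activators of HOX genes in the trunk, reached at most 0.026 TPM in summed level, and none passed the filter for testing. Of the 39 HOX genes, 31 had a mean of 5 TPM or more in at least 1 of the 11 groups.

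Expression did not stop at one axial level in either line. In A375 WT the HOXA genes from HOXA3 to HOXA6 lay between 5.86 and 21.2 TPM, HOXA7 and HOXA9 were at 0.431 and 0.427 TPM, and HOXA10 was at 12.4 TPM. In WM115 WT the same gap was seen, with HOXA7 at 0.886 TPM and HOXA9 at 0.243 TPM between HOXA6 at 8.08 TPM and HOXA10 at 6.98 TPM. HOXC genes were all on, from 2.99 TPM (HOXC5) to 49.8 TPM (HOXC10) in A375 WT and from 3.95 TPM (HOXC11) to 38.3 TPM (HOXC10) in WM115 WT. HOXB13, best known from the prostate, was at 6.82 ± 0.79 TPM in A375 WT and 4.95 ± 0.78 TPM in WM115 WT (SD, n = 4 each), a log2 difference that was not called (-0.40, SE 0.15, limma adjusted p = 0.0558).

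Which HOX genes set the lines apart was asked in the 8 WT libraries. A gene was called where limma gave an adjusted p under 0.05 and a log2 difference, on log2(TPM + 1), of at least 1 in size; that scale understates changes of low genes. By this rule 8 of the 35 HOX genes tested differed, against 22.7% of all genes tested. The 7 that were higher in WM115 (13.1% of all genes) were HOXD3, HOXD4, HOXD8, HOXD10, HOXD11, HOXA11 and HOXC12, and HOXA5 was lower (9.55% of all genes). So 5 of the 8 HOXD genes tested were called. HOXD3, HOXD4, HOXD11 and HOXA11 passed the filter of at least 1 TPM in at least 3 libraries only through the WM115 libraries. They entered the test because they were high there, and the counts and the HOXD median include them. The median log2 difference was 1.70 over those 8 HOXD genes, 0.19 over all 35 HOX genes, 0.25 over the 1032 other genes of chromosome 2 and 0.04 over all genes. Summed over the cluster, HOXD genes came to 24.5 ± 2.95 TPM in A375 WT and 76.7 ± 7.10 TPM in WM115 WT (SD, n = 4 each). In bulk RNA, fewer cells with a transcript and less of it per cell cannot be told apart. HOXA, HOXB and HOXC sums lay closer together, at 78.6 and 65.5 TPM, 165.9 and 171.4 TPM, and 130.4 and 121.9 TPM. Melanocytic markers moved with the line as well, with 7 of 8 called higher in WM115 WT. Their sums, which include SOX10, were 687 to 813 TPM in A375 WT and 1044 to 2890 TPM in WM115 WT. Other lists moved too. Of 2 keratinocyte and epithelial markers tested 1 was lower in WM115 WT. The 1 immune marker tested and 1 of 3 fibroblast markers were higher. The part of these markers in the HOX differences was not tested.

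HOXD11, which shapes the forearm and kidney, was at 0.811, 1.096, 0.214 and 0.281 TPM in the A375 WT libraries and at 14.9, 14.97, 11.7 and 13.04 TPM in those of WM115. No WM115 value came near an A375 value, and the log2 difference was 3.23 (SE 0.21, limma adjusted p = 1.88e-06). HOXD10, a motor neuron and limb gene, was at 1.84, 1.12, 1.38 and 0.72 TPM in A375 WT and at 11.3, 9.28, 10.1 and 11.5 TPM in WM115 WT. Its log2 difference was 2.37 (SE 0.18, limma adjusted p = 6.29e-06), again with no overlap. Exons of HOXD10 and HOXD11 share 452 bases on the same strand, so part of their reads could be assigned to either.

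HOXD4 and HOXD3, the low-numbered end of the cluster, showed the same order. HOXD4 was at 0.549, 0.292, 0.642 and 0.565 TPM in A375 WT and at 7.80, 10.4, 9.98 and 8.29 TPM in WM115 WT. The log2 difference was 2.74 (SE 0.16, limma adjusted p = 9.17e-07). HOXD3 was at 0.911, 0.673, 0.417 and 0.9 TPM in A375 WT and at 10.4, 9.67, 6.69 and 8.80 TPM in WM115 WT. Its log2 difference was 2.52 (SE 0.18, limma adjusted p = 4.03e-06). Both genes overlap the annotated gene AC009336.2 on the same strand, over 80.5% of HOXD4's exon bases and 62.2% of HOXD3's.

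HOXD9, which lies between HOXD10 and HOXD8, did not follow them. Its mean was 9.08 ± 1.18 TPM in A375 WT and 9.03 ± 0.28 TPM in WM115 WT (SD, n = 4 each; limma adjusted p = 0.999). HOXD8 was at 5.83, 6.30, 4.56 and 3.53 TPM in A375 WT and at 11.9, 12.4, 8.97 and 11.9 TPM in WM115 WT, with a log2 difference of 1.04 (SE 0.19, limma adjusted p = 0.00143). Its size fell under the minimum without WM115 WT replicate 2 (0.99), without A375 WT replicate 4 (0.91) and with median-of-ratios scaling (0.975). HOXD13, a gene of the digits, was at 6.34, 6.10, 6.68 and 6.53 TPM in A375 WT and at 12.8, 12.5, 8.41 and 13.4 TPM in WM115 WT. The groups did not overlap, and the log2 difference of 0.77 (SE 0.16, limma adjusted p = 0.00367) was under the minimum size. HOXD1 was at 0.656 and 1.41 TPM and overlapped between the lines.

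**Figure D2:**
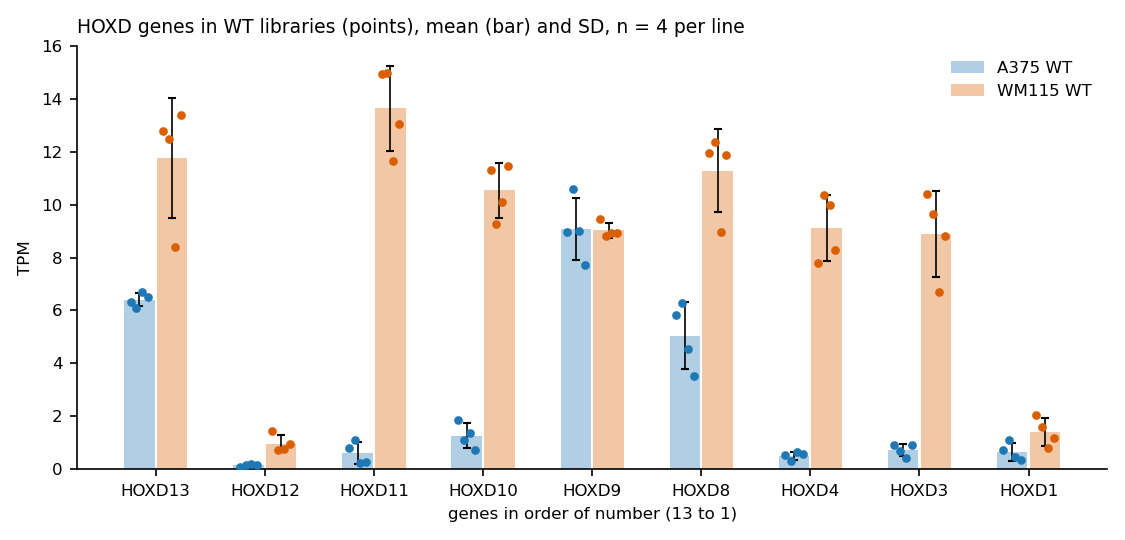
HOXD genes in WT libraries of A375 (blue) and WM115 (orange), in TPM (y axis), with genes ordered by number; points are libraries, bars the mean and lines the SD of 4 libraries. HOXD11, HOXD10, HOXD4 and HOXD3 are at 0.512 to 1.27 TPM on average in A375 and 8.89 to 13.7 TPM in WM115, while HOXD9 is at 9.08 and 9.03 TPM.

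Outside HOXD, HOXA11, a uterine and forearm gene, was at 0.619, 0.939, 0.829 and 1.08 TPM in A375 WT and at 5.15, 4.86, 4.13 and 4.58 TPM in WM115 WT. The log2 difference was 1.61 (SE 0.15, limma adjusted p = 2.29e-05). HOXA11-AS, which lies antisense to HOXA11 over 31.1% of its exon bases, was also higher in WM115 WT (log2 difference 1.68, SE 0.25, limma adjusted p = 0.000476). HOXC12, of the tail end of its cluster, was at 5.47, 5.23, 4.40 and 3.86 TPM in A375 WT and at 13.4, 12.1, 12.7 and 12.9 TPM in WM115 WT. It differed by 1.27 on the log2 scale (SE 0.14, limma adjusted p = 8.05e-05). HOXA5, a gene of the neck and lung, went the other way, with 19.2, 20.2, 29.1 and 16.5 TPM in A375 WT and 8.83, 6.62, 6.77 and 7.13 TPM in WM115 WT. Its log2 difference was -1.39 (SE 0.19, limma adjusted p = 0.000227).

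A further 8 HOX genes had an adjusted p under 0.05 with a difference under the minimum size, so that 16 of 35 passed on p alone, against 47.9% of all genes. HOXB8 was the closest to the minimum, at 16.9 ± 4.55 TPM in A375 WT and 8.05 ± 1.29 TPM in WM115 WT (log2 difference -0.95, SE 0.21, limma adjusted p = 0.00415). HOXC5 followed at 2.99 ± 1.11 and 6.26 ± 0.52 TPM (0.91, SE 0.22, limma adjusted p = 0.00697). HOXA10 was higher in A375 (12.4 against 6.98 TPM), as was HOXC13, a gene of hair and nails (12.5 against 7.71 TPM), and HOXB6 was higher in WM115 (19.4 against 11.5 TPM).

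The differences between the lines could be read in the clones too, which the WT comparison did not use. The counts that follow hold the WT libraries as well, and clones of a line do not repeat the line. Over all 18 A375 and 21 WM115 libraries, 6 of 37 HOX genes were higher in every WM115 library than in every A375 library, against 3.81% of all genes, and 0 were lower in every one, against 5.29%. The 6 were HOXA11, HOXC12, HOXD3, HOXD4, HOXD10 and HOXD11. Of these, HOXA11, HOXD4 and HOXD11 did not pass the filter over the A375 libraries alone, so they entered through WM115. HOXD11 ranged from 0.059 to 1.12 TPM (median 0.311) in A375 and from 9.61 to 15.6 TPM (median 12.5) in WM115. HOXD4 ranged from 0.178 to 1.27 TPM in A375 and from 6.64 to 11.3 TPM in WM115. HOXA5 and HOXD8, called in the WT libraries, overlapped once clones were counted, because HOXA5 reached 22.9 TPM in WM115 clone 1.2 and 14.5 TPM in clone 1.3 against a lowest A375 value of 12.4 TPM, and HOXD8 was at 5.85 TPM in 1 WM115 library against 6.30 TPM in 1 of A375.

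**Figure D3:**
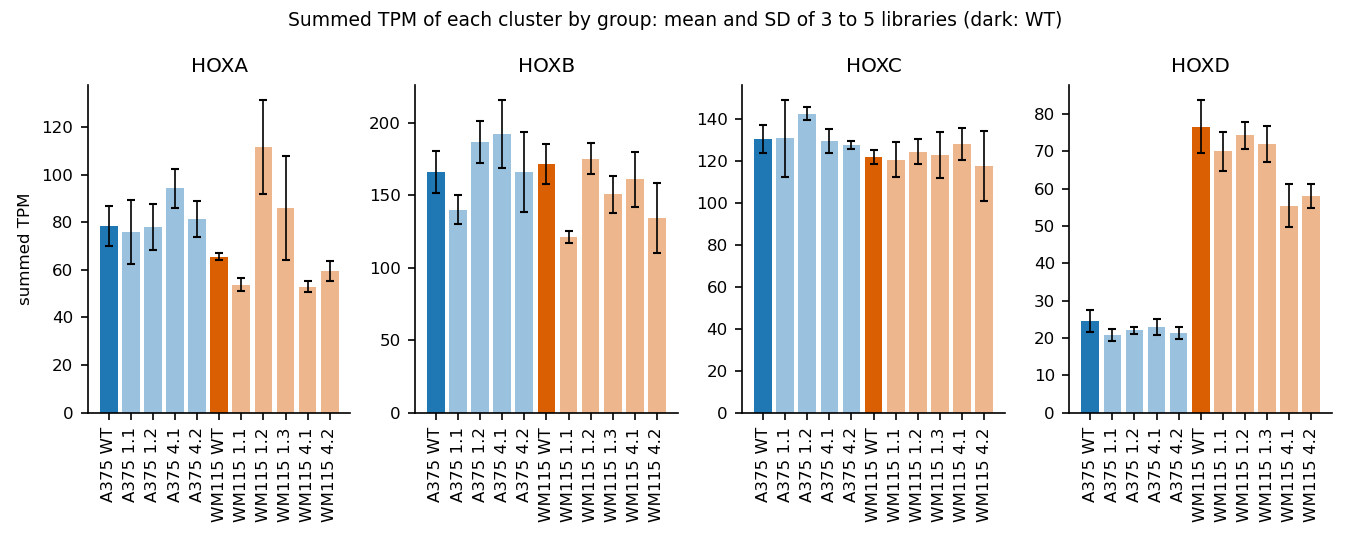
Summed TPM of each HOX cluster (y axis) by group, with the mean as bar and the SD of 3 to 5 libraries as line; WT is dark and clones are light. HOXD sums are 20.8 to 24.5 TPM on average in the A375 groups and 55.5 to 76.7 TPM in the WM115 groups, and the highest HOXA sum is that of WM115 clone 1.2, at 111.7 TPM.

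The deposited transcript values list 2 transcripts of HOXD11, and both were higher in WM115 WT. HOXD11-201, the protein-coding form, was at 0.214 to 1.096 TPM in A375 WT and 6.48 to 9.62 TPM in WM115 WT. HOXD11-202, a form annotated without a coding sequence, was at 0 to 0.0629 TPM and 4.80 to 6.05 TPM. For HOXA10, the form with the highest mean was HOXA10-205, without a coding sequence, in A375 WT (4.83 TPM) and the protein-coding HOXA10-206 in WM115 WT (4.2 TPM). The coding form itself was at 4.21 ± 1.70 TPM in A375 WT and 4.2 ± 0.94 TPM in WM115 WT. HOXA3-201 made up 92.6% of HOXA3 in A375 WT and 68.5% in WM115 WT, where HOXA3-205 stood at 2.23 to 4.55 TPM against 0 to 0.378 TPM in A375 WT. No test was run on transcripts.

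Whether a deletion clone differed from its WT was asked for 9 clones, each line in 1 fit of all its groups. In A375, 0 of the 32 HOX genes tested were called in clone 1.1, 1.2, 4.1 or 4.2, against 0.731%, 4.01%, 0.653% and 0.473% of all genes. Before adjustment, p was under 0.05 in limma for 3, 7, 2 and 0 of the 32, against 1679, 3530, 1758 and 1297 of all 16692 genes. The median log2 differences of the HOX genes were -0.14, 0.06, 0.03 and -0.08, beside 0.01, 0.07, -0.02 and 0.06 over all genes. Without replicate 1 of clone 1.1, HOXB9 was called, as the only HOX gene. With all libraries HOXB9, a gene of the thoracic trunk, was at 8.17 ± 4.51 TPM (SD, n = 3) in clone 1.1 and 17.03 ± 5.98 TPM (n = 4) in WT (log2 difference -1.02, SE 0.31, limma adjusted p = 0.152).

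In A375 clone 1.2, 3 HOX genes were higher and 1 lower by adjusted p alone, against 5.44% and 3.09% of all genes, and none reached the minimum size. HOXB6 was at 15.7, 15.3, 21.2 and 24.1 TPM in the clone and 10.4, 9.45, 15.2 and 10.8 TPM in WT. Every clone library lay above every WT library (log2 difference 0.68, SE 0.17, limma adjusted p = 0.0209). HOXA4 was at 23.5 against 15.3 TPM, HOXC13 at 17.03 against 12.5 TPM and HOXD13 at 4.31 against 6.41 TPM (limma adjusted p = 0.0197, 0.0424 and 0.0367). Leaving out 1 library of clone 1.2 or WT at a time left 0 to 2 genes higher and 0 or 1 lower, with none at all without clone 1.2 replicate 4 and none within the libraries of low mitochondrial share. Of 4 fibroblast markers 2 were called higher in this clone, and no marker of another list was called. Fibroblast sums were 10.1 to 14.2 TPM against 3.015 to 6.47 TPM in WT. Their part in the HOX differences was not tested.

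Libraries of A375 clone 4.1 and WT with the same replicate number deviated together (r = 0.326 to 0.776 across genes), so they were also compared as pairs. HOXB8 was at 16.2, 18.8, 21.6 and 10.9 TPM in WT replicates 1 to 4 and at 28.6, 27.3, 41.7 and 13.7 TPM in clone 4.1. In both series the third library was highest and the fourth lowest, and the clone was above WT in 4 of 4 pairs. HOXB9 was at 16.2, 24.9, 16.6 and 10.4 TPM in WT and at 29.2, 37.7, 29.4 and 18.2 TPM in clone 4.1, again higher in every pair. With pairs, HOXB9 (log2 difference 0.73, SE 0.08), HOXB8 (0.63, SE 0.11) and HOXA5 (0.56, SE 0.10) had limma adjusted p-values of 0.00184, 0.0107 and 0.00962, against 0.312, 0.683 and 0.207 without. These were 3 of 30 HOX genes that were higher on p alone in the paired fit, against 7.94% of all genes, 0 were lower, against 6.37%, and 0 reached the minimum size.

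**Figure D4:**
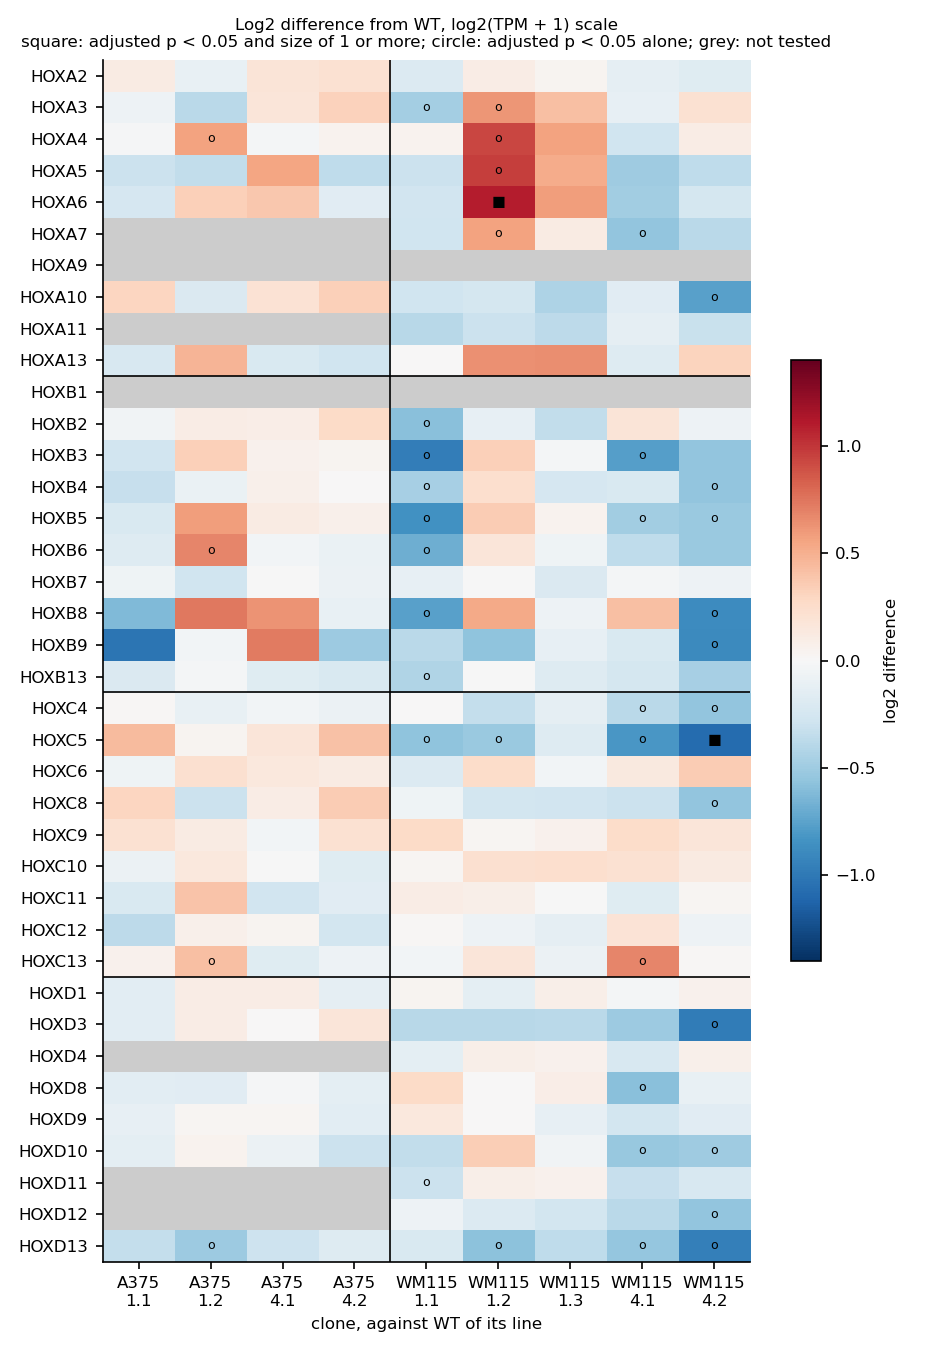
Log2 difference from WT (colour, log2(TPM + 1) scale) of 38 HOX genes (rows) in each clone (columns), A375 left and WM115 right of the line; squares mark called genes, circles an adjusted p under 0.05 alone, and grey cells were not tested. Called cells are HOXA6 in WM115 clone 1.2 and HOXC5 in WM115 clone 4.2.

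In WM115, 37 HOX genes were tested against WT. Clones 1.1, 1.3 and 4.1 had 0 called, against 4.88%, 0.618% and 7.57% of all genes. Clone 1.2 had 1 called, HOXA6, against 7.61%, and clone 4.2 had 1 called, HOXC5, against 6.6%. Before adjustment, p was under 0.05 in limma for 15, 13, 7, 16 and 17 HOX genes in clones 1.1, 1.2, 1.3, 4.1 and 4.2. Over all 16997 genes tested the counts were 5968, 6206, 2212, 6300 and 5835. By adjusted p alone clone 1.3 had 0 HOX genes, against 1.06% of all genes. Median log2 differences of the HOX genes were -0.26, 0.08, -0.06, -0.23 and -0.31 in clones 1.1, 1.2, 1.3, 4.1 and 4.2, beside -0.12, -0.02, -0.03, -0.10 and -0.10 over all genes.

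HOXA6, a gene of the cervical and thoracic trunk, was at 8.92, 8.18, 6.26 and 8.95 TPM in WM115 WT and at 16.6, 17.02 and 21.6 TPM in clone 1.2. The groups did not overlap, and the log2 difference was 1.1 (SE 0.18, limma adjusted p = 0.000808). The highest library was replicate 3, the one with the low SOX10. Without it the difference was 0.985, and without WT replicate 3 it was 0.996, both under the minimum size. HOXA-AS3 lies antisense to 39.3% of the exon bases of HOXA6.

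The neighbours of HOXA6 lay the same way in clone 1.2. HOXA4 was at 28.4, 27.3 and 35.6 TPM against 13.2, 15.3, 19.1 and 14.6 TPM in WT, with no overlap (log2 difference 0.93, SE 0.18, limma adjusted p = 0.00254). HOXA5 was at 13, 11.7 and 22.9 TPM against 8.83, 6.62, 6.77 and 7.13 TPM in WT (0.96, SE 0.19, limma adjusted p = 0.00221). HOXA3 and HOXA7 had log2 differences of 0.62 and 0.56 (limma adjusted p = 0.0124 and 0.0419). These 5 were all the HOX genes higher by adjusted p alone in clone 1.2, against 11.8% of all genes, and 2 were lower, HOXC5 (-0.52) and HOXD13 (-0.57), against 10.8%. Without replicate 3 of clone 1.2, 3 were higher and 0 lower. HOXA10 and HOXA11, further along the cluster, had log2 differences of -0.25 and -0.30 (limma adjusted p = 0.224 and 0.18). HOXA13, further still, did not pass with all libraries but was higher by adjusted p without replicate 1 of clone 1.2. It was also higher by adjusted p in clone 1.2 than in clone 1.1.

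The HOXA sum was 65.5 ± 1.55 TPM in WM115 WT (SD, n = 4) and 111.7 ± 19.8 TPM in clone 1.2 (n = 3), where replicates 1 to 3 were at 107.9, 94.1 and 133.1 TPM. The median log2 difference was 0.63 over the 10 HOXA genes tested and 0.16 over the 843 other genes of chromosome 7, beside -0.02 over all genes. Without replicate 3 of clone 1.2 the HOXA median was 0.52. SKAP2, which flanks the cluster, was called higher (log2 difference 1.44, SE 0.19, limma adjusted p = 0.000113), also without that library (1.23, limma adjusted p = 0.0013). The noncoding RNA HOTAIRM1, from the HOXA cluster, was at 12.3 to 35.5 TPM in clone 1.2 and 4.01 to 8.73 TPM in WT (1.71, SE 0.40, limma adjusted p = 0.00738). HOTAIR, from the HOXC cluster, was at 2.10 to 7.93 TPM and 0.465 to 1.22 TPM (1.38, SE 0.33, limma adjusted p = 0.00824). Neither RNA was called without replicate 3 (1.37 and 0.94, limma adjusted p = 0.0707 and 0.0864). Melanocytic markers moved with these values. The 8 of them, SOX10 included, summed to 643, 936 and 29.4 TPM in replicates 1 to 3 of clone 1.2. In WT they summed to 1044 to 2890 TPM. Of the 8, 4 were called lower and 0 higher, and 2 lower without replicate 3. The single endothelial marker tested, PECAM1, was called higher (1.64) and the single immune marker, ITGAM, lower (-1.83), neither of them without replicate 3. Of 4 fibroblast markers 1 was called higher and 1 lower. Without replicate 3, COL1A1 was called higher (1.18) and LUM lower (-2.16, limma adjusted p = 0.0106 and 0.0409). Summed over the lists, endothelial markers were at 2.735 to 16.3 TPM against 0.229 to 3.18 TPM in WT, and immune markers at 0.22 to 1.22 TPM against 0.319 to 10.99 TPM. Their part in the HOX differences was not tested.

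In clone 1.3 the same HOXA genes had higher means than WT, with wide spread. HOXA6 was at 10.9, 15.7 and 11.4 TPM, above every WT library, with a log2 difference of 0.58 (SE 0.18, limma adjusted p = 0.164). HOXA4 was at 18.7, 34.0 and 19.5 TPM and overlapped WT. Replicate 2 was the highest for both.

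Clone 1.1 of WM115 carries a deletion of the same region as clone 1.2, and most of its HOX genes lower than WT were from HOXB. By adjusted p alone, 10 HOX genes were lower and 0 higher, against 15.7% and 6.3% of all genes. They were HOXB2, HOXB3, HOXB4, HOXB5, HOXB6, HOXB8, HOXB13, HOXA3, HOXC5 and HOXD11, and none reached the minimum size. HOXB7 and HOXB9 did not pass (limma adjusted p = 0.442 and 0.186) and overlapped WT. HOXB3 was at 6.64, 5.02, 5.14, 6.46 and 8.49 TPM against 12.999, 13.3, 13.9 and 12.7 TPM in WT, with no overlap (log2 difference -0.97, SE 0.21, limma adjusted p = 0.00305). HOXB5 was at 2.58, 2.08, 2.55, 2.84 and 3.51 TPM against 4.96, 5.85, 6.31 and 5.41 TPM (-0.84, SE 0.14, limma adjusted p = 0.000321). HOXB6 was at 11.7 ± 1.19 TPM (SD, n = 5) against 19.4 ± 2.13 TPM (n = 4). The HOXB sum was 121.0 ± 4.32 TPM, against 171.4 ± 13.9 TPM in WT. HOXB3 was called without clone 1.1 replicate 5. With 1 library left out at a time, 5 to 10 genes were lower, with 5 both without WT replicate 1 and without WT replicate 2.

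All genes together had a median difference of -0.12 in this comparison, and median-of-ratios scaling moved it to -0.001. Under that scaling 4 HOX genes were lower (HOXB3, HOXB5, HOXB6 and HOXC5) and 3 higher in clone 1.1 by adjusted p alone. In clones 4.1 and 4.2 it moved the median of all genes from -0.10 in both to 0.009 and 0.005. Which of the smaller HOX differences passed in these 3 clones, and how many in each direction, therefore depended on the scaling. Clone 1.1 libraries also held 4.86% to 14.4% mitochondrial RNA, against 13.7% to 15.6% in WT. With the high or low mitochondrial share of a library as a term, 3 HOX genes were lower in clone 1.1 by adjusted p alone, and within the high set, which holds 2 libraries of the clone and all 4 of WT, 2 were, HOXB5 and HOXB6. In clone 4.2 these counts were 13 and 4, again with 2 clone libraries in the high set. With the term 3 were lower in clone 4.1, which has 1 library in that set, so no count within it is given. For counts by adjusted p alone under alternative settings, here and elsewhere, the share of all genes was not taken, apart from the paired fit of A375 clone 4.1. Those counts therefore stand without a background.

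Both R4 clones of WM115 had lower HOXC5 than WT by adjusted p, and some genes of the HOXD and HOXB clusters were lower as well. HOXC5 was at 6.01, 6.82, 5.67 and 6.55 TPM in WT, at 3.35, 3.12 and 2.93 TPM in clone 4.1 and at 2.05, 2.04 and 3.37 TPM in clone 4.2. Neither clone overlapped WT. In clone 4.2 the log2 difference was -1.08 (SE 0.17, limma adjusted p = 0.000486), and in clone 4.1 it was -0.81 (SE 0.17, limma adjusted p = 0.00278), under the minimum size. The size in clone 4.2 was -0.98 with median-of-ratios scaling and -0.99 without either replicate 1 or replicate 2 of the clone or within the high mitochondrial set, so that the call was lost. It was also low in clones 1.1 (3.94 TPM) and 1.2 (4.07 TPM), whose values all lay below WT. The comparisons of the WM115 clones share the same 4 WT libraries. Another annotated gene that is also named HOXC5 covers 59.9% of the exon bases of HOXC5 on the same strand, and AC012531.2 covers 33.9%. Part of the HOXC5 reads could therefore be assigned to either.

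Of the 9 HOXD genes tested, none was called in either clone. By adjusted p alone 3 were lower in clone 4.1 (HOXD8, HOXD10 and HOXD13) and 4 in clone 4.2 (HOXD3, HOXD10, HOXD12 and HOXD13). HOXD4 did not pass in either, at 7.59 TPM in clone 4.1 and 9.55 TPM in clone 4.2 against 9.11 TPM in WT, nor did HOXD1, at 1.35 and 1.47 against 1.41 TPM. HOXD3 was at 3.36, 4.21 and 4.43 TPM in clone 4.2 against 10.4, 9.67, 6.69 and 8.80 TPM in WT (log2 difference -0.98, SE 0.18, limma adjusted p = 0.00159). HOXD13 was at 5.98, 4.36 and 6.26 TPM against 12.8, 12.5, 8.41 and 13.4 TPM (-0.96, SE 0.19, limma adjusted p = 0.00211). HOXD10 was at 7.24 ± 1.58 TPM in clone 4.2 and 7.03 ± 1.16 TPM in clone 4.1, against 10.6 ± 1.04 TPM in WT (-0.50 and -0.53, limma adjusted p = 0.0296 and 0.0201). The HOXD sum was 76.7 ± 7.10 TPM in WT, 55.5 ± 5.87 TPM in clone 4.1 and 58.0 ± 3.21 TPM in clone 4.2. Lower values were not particular to HOXD. In clone 4.2 HOXB4, HOXB5, HOXB8 and HOXB9 were lower by adjusted p, and in clone 4.1 HOXB3 and HOXB5. Median log2 differences over HOXB and HOXD were -0.52 and -0.23 in clone 4.2, and -0.22 and -0.37 in clone 4.1. The HOXB sum was 171.4 ± 13.9 TPM in WT, 160.8 ± 19.2 TPM in clone 4.1 and 134.3 ± 24.2 TPM in clone 4.2. By adjusted p alone, 12 HOX genes were lower and 0 higher in clone 4.2, against 13.6% and 6.71% of all genes, and 8 were lower and 1, HOXC13, higher in clone 4.1, against 15.6% and 8.59%. Median-of-ratios scaling left 8 lower and 1 higher in clone 4.2, and 2 lower and 2 higher in clone 4.1. Leaving out 1 library at a time left 7 to 15 lower in clone 4.2 and 1 to 10 in clone 4.1, with 1 without clone 4.1 replicate 2. Clone 4.2 had 4 called HOX genes without its replicate 3 (HOXC5, HOXD3, HOXD13 and HOXB8) or without WT replicate 3 (HOXC5, HOXD3, HOXD13 and HOXB9). Melanocytic markers, SOX10 among them, were lower in both, with 6 of 8 called in clone 4.1 and 5 of 8 in clone 4.2. Their sums, SOX10 included, were 791 to 1138 and 661 to 1065 TPM. Markers of other cell types moved too. The 1 endothelial marker tested of 3, PECAM1, was called higher in clones 4.1 and 4.2 (log2 differences 1.22 and 1.57), and summed endothelial levels were 3.06 to 4.999 and 3.28 to 7.46 TPM against 0.229 to 3.18 TPM in WT. Of 6 keratinocyte and epithelial markers 2 were tested and KRT14 was higher in both (1.504 and 1.35), with sums of 57.4 to 72.3 and 59.9 to 79.3 TPM against 40.4 to 56.5 TPM, and KRT5 at 0 in all 3 groups. The 1 immune marker tested of 5, ITGAM, was lower in both (-1.83 and -1.795), with sums of 0.049 to 0.56 and 0.175 to 0.209 TPM against 0.319 to 10.99 TPM. Of 4 fibroblast markers, DCN was higher in clone 4.1 (1.74) and LUM lower in clone 4.2 (-1.71), with sums of 5.66 to 10.9 and 4.17 to 7.098 TPM against 4.49 to 27.2 TPM. The part of these markers in the HOX differences was not tested.

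Clones that share a deletion were then compared with each other, which needs no WT library. WM115 clones 1.2 and 1.1 differed at 7 of 37 HOX genes, all higher in clone 1.2, against 8.51% of all genes that were higher and 3.25% that were lower. Among them were HOXA3, HOXA5, HOXA6, HOXB3, HOXB5 and HOXB8, and no HOXC or HOXD gene. The median log2 difference was 0.86 over HOXA, 0.70 over HOXB, -0.02 over HOXC and -0.11 over HOXD genes, beside 0.28, 0.15, 0.05 and 0.07 over the other genes of the same chromosomes. Without replicate 3 of clone 1.2 the HOX medians were 0.72, 0.53, -0.02 and 0.05.

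HOXA6 was at 9.70, 6.08, 5.47, 5.89 and 6.004 TPM in clone 1.1 and at 16.6, 17.02 and 21.6 TPM in clone 1.2 (log2 difference 1.36, SE 0.18, limma adjusted p = 2.16e-05). HOXB3 was at 6.64, 5.02, 5.14, 6.46 and 8.49 TPM in clone 1.1 and at 15.005, 13.8 and 23.5 TPM in clone 1.2 (1.31, SE 0.23, limma adjusted p = 0.00029). HOXB5 was at 2.08 to 3.51 TPM in clone 1.1 and at 7.02, 6.88 and 8.64 TPM in clone 1.2 (1.203, SE 0.15, limma adjusted p = 1.36e-05). None of these groups overlapped.

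HOXB8 was at 3.16 to 5.88 TPM in clone 1.1 and at 9.54, 12.9 and 13.97 TPM in clone 1.2 (1.29, SE 0.25, limma adjusted p = 0.000732). HOXA5 was at 5.20 to 6.44 TPM in clone 1.1 and at 13, 11.7 and 22.9 TPM in clone 1.2 (1.27, SE 0.18, limma adjusted p = 4.58e-05). HOXA3 was at 10.007 to 11.7 TPM and at 28.3, 17.8 and 25.7 TPM (1.09, SE 0.15, limma adjusted p = 4.82e-05). Replicate 3 of clone 1.2 was the highest library for HOXA5, HOXA6, HOXB3, HOXB5 and HOXB8.

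Without that replicate 5 genes stayed called. HOXA5 was at 0.986, under the minimum size. HOXA3 was at 0.960 without replicate 1 of clone 1.2 and at 0.971 with median-of-ratios scaling. By adjusted p alone, 16 HOX genes were higher and 1, HOXC4, lower in clone 1.2, against 23% and 12.4% of all genes, and median-of-ratios scaling gave 12 and 5. Without replicate 3 of clone 1.2, 12 were higher and none lower. Melanocytic markers moved here as well, with 4 of 8 called lower in clone 1.2 and 1 of 8 without its replicate 3. PECAM1, the endothelial marker tested, was called higher with and without that library. Of 4 fibroblast markers 1 was called higher and 1 lower. Without that library COL1A1 was called higher (1.29, limma adjusted p = 0.00136) and none lower. The part of these markers was not tested.

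**Figure D5:**
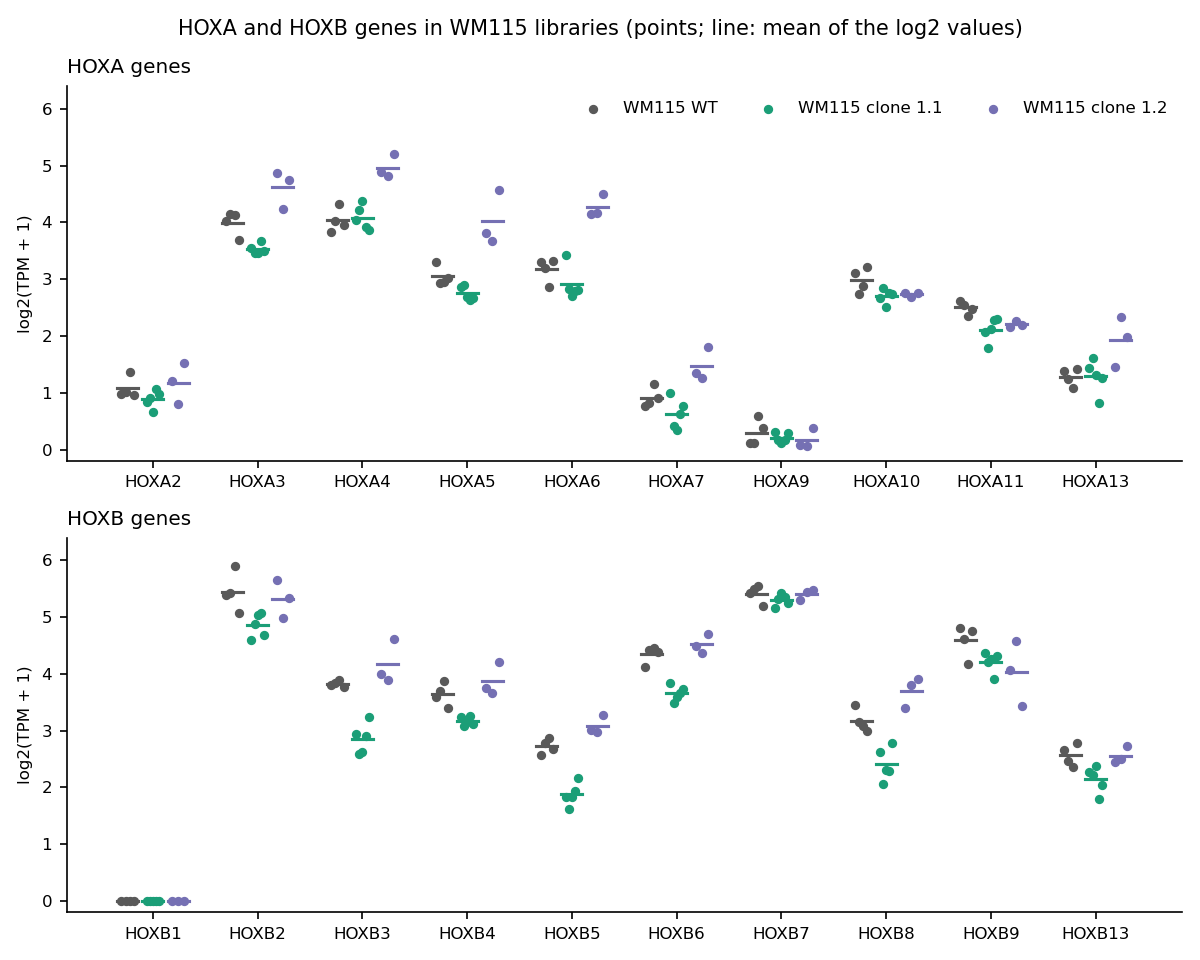
HOXA (top) and HOXB (bottom) genes on the log2(TPM + 1) scale (y axis) in libraries of WM115 WT, clone 1.1 and clone 1.2; points are libraries and short lines the mean of the log2 values. HOXA3 to HOXA6 of clone 1.2 lie above clone 1.1 throughout, HOXB3 to HOXB6 and HOXB8 of clone 1.1 lie below WT, and HOXA10 and HOXB7 overlap between the clones.

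The remaining pairs differed at 1 HOX gene each, all of them from HOXB. A375 clone 1.2 was higher than clone 1.1 at HOXB8, with 34.6, 23.6, 34.3 and 21.7 TPM against 20.2, 10.2 and 5.16 TPM (log2 difference 1.35, SE 0.43, limma adjusted p = 0.0461), against 4.68% of all genes higher. That call rested on single libraries: leaving out 1 at a time gave 0.91 to 1.80 and lost it in 5 of 7 cases, and it was also lost without the filter and with median-of-ratios scaling. A375 clone 4.2 was lower than clone 4.1 at HOXB9, with 15.2, 10.4 and 8.70 TPM against 29.2, 37.7, 29.4 and 18.2 TPM (-1.24, SE 0.31, limma adjusted p = 0.0321), against 1.28% of all genes lower. This call was lost without replicate 2 or 3 of clone 4.2 (-1.196 and -1.08) and without replicate 1, 2 or 3 of clone 4.1 (-1.22, -1.10 and -1.22).

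WM115 clone 4.2 was lower than clone 4.1 at HOXB8, with 3.78, 2.30 and 6.29 TPM against 8.32, 9.97 and 16.1 TPM (log2 difference -1.31, SE 0.28, limma adjusted p = 0.0069), against 1.82% of all genes lower. It was lost without replicate 2 of clone 4.2 (-1.03) and without replicate 3 of clone 4.1 (-1.06). HOXB8, which helps pattern the trunk, was also the HOX gene with the widest spread between libraries of a group, with a pooled SD of 0.62 in A375 and 0.36 in WM115 on the log2 scale, against medians of 0.30 and 0.26 over all genes. HOXD9 was the steadiest in WM115, at 0.12, and HOXC10 in A375, at 0.13. Between libraries of high and low mitochondrial share, with groups as terms, no HOX gene had an adjusted p under 0.05 in limma: 0 of 32 in A375, against 0.15% of all genes higher and 0% lower, and 0 of 37 in WM115, against 3.42% and 1.55%.

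Taking the clone as the unit, R4 was compared with R1 over 8 clones of both lines. No HOX gene of 36 had an adjusted p under 0.05, against 0% of all genes, and 0 of 36 had an unadjusted p under 0.05 in limma, against 754 of 18099 genes. The interaction of region and line likewise had 0 HOX genes by adjusted p (0% of all genes) and 0 before adjustment, against 532 of 18099. The median log2 difference of the HOX genes between R4 and R1 clones was -0.09, beside -0.04 over all genes.

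HOX cofactors and chromatin regulators were read from the same fits. Of 9 TALE homeodomain genes (PBX, MEIS and PKNOX), 9 were tested between the lines and in A375 and 8 in WM115. PBX4 was higher and PBX3 was lower in WM115 WT than in A375 WT (log2 differences 1.2 and -1.25). PKNOX2 was lower in A375 clone 1.2 (-1.93, limma adjusted p = 0.000345). In WM115, MEIS2 was lower and PKNOX2 higher in clone 1.1 (-1.28 and 1.14), and MEIS3 was higher in clone 1.2 (1.09), though not called without its replicate 3 (0.795, limma adjusted p = 0.116). Of 30 Polycomb and Trithorax genes, 2 were higher and 4 lower between the WT lines, against 13.1% and 9.55% of all genes, among them JARID2, a Polycomb partner, at 1.68, and PHF19, another, at -1.44. In the clones against WT, 1 call was made in this list, JARID2 in WM115 clone 4.2 (-1.11, SE 0.24, limma adjusted p = 0.0045).

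Of 25 listed noncoding RNAs of the HOX clusters, 19 were in the table and 13 or 14 were tested. HAGLR, antisense to a stretch of HOXD3 exon, was at 5.17 ± 0.90 TPM in A375 WT and 20.7 ± 7.79 TPM in WM115 WT (log2 difference 1.75, SE 0.25, limma adjusted p = 0.000373). HOXA11-AS was lower than WT in WM115 clones 1.1, 4.1 and 4.2 (-1.16, -1.04 and -1.27), while HOXA11 itself was not called in any of the 3. HOXB-AS1, antisense to HOXB2 and HOXB3, was at 3.37 ± 1.04 TPM in WM115 clone 1.1 against 9.25 ± 0.64 TPM in WT (-1.26, SE 0.28, limma adjusted p = 0.00394), and at 3.37 ± 1.41 TPM in clone 4.1 (-1.28). Between clones 1.2 and 1.1, 6 of the 13 noncoding RNAs tested were higher in clone 1.2 and 0 lower, against 8.51% and 3.25% of all genes, and 4 were higher without replicate 3 of clone 1.2. Of the genes flanking the clusters, none was called in any A375 clone against WT. In WM115, where 16 were tested, 2 were higher in clone 1.2 (SKAP2 and NFE2), 1 in clone 4.1 (NFE2, 1.18) and 1 in clone 4.2 (NFE2, 2.02), and 1 was lower in clone 4.2 (PRAC2, -1.59). NFE2 in clone 1.2 (1.585) was not called without replicate 3 (1.02, limma adjusted p = 0.0894).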

How the data were processed

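Poly-A RNA of 18 A375 and 21 WM115 libraries was sequenced. The authors deposited TPM per gene and per transcript; per the submitters' processing notes DRAGEN and GRCh38 were used, and the annotation release is not given in the sources used here. The gene table has 60871 lines, of which 200 repeat a gene identifier and were dropped, and library sums were 999999.9 to 1000000.1 TPM; the 6 columns that match no sample were not used. TPM keep no read depth, so no count model was run and precision was judged from the spread between libraries.

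Genes with at least 1 TPM in at least 3 of the libraries fitted were tested on log2(TPM + 1) with limma 3.58.1 (R 4.3.3, moderated with a variance trend, Benjamini-Hochberg adjustment over all genes tested). Each line was 1 fit of all its groups (16692 genes in A375, 16997 in WM115), the lines were compared over WT libraries (16126 genes), and regions over clone means (18099 genes). Calls needed an adjusted p under 0.05 and a log2 difference of at least 1 in size. Same-numbered libraries of A375 clone 4.1 and WT deviated together in all 4 pairs (r = 0.326, 0.776, 0.342 and 0.705), which came from the data since the labels give only the numbers; no other comparison had every pair over 0.1.

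Every HOX gene may be named, except 1 that, like 1 cofactor, is not reported here but enters the counts, sums and medians. Those with a mean of 5 TPM or more in a group are given with levels and called ones with their statistics. HOXA2, HOXA7, HOXA9, HOXA13, HOXD1 and HOXD12 were added after their values were seen. Other genes come from lists of cofactors, regulators, neighbours and markers, at most the 4 largest called per list and line. Members and lists were chosen with earlier results of these data known. Positions came from GENCODE 29 by Ensembl identifier (58453 of 60671 matched) and promoters from RefSeq (GRCh38.p14). Tables and figures used Python 3.11.15, pandas 2.3.3, numpy 2.4.6 and matplotlib 3.10.9, and the fit was tested on simulated data. Alternatives were pseudocount 0.1, a mean of at least 5 TPM, no filter, median-of-ratios scaling, no variance trend, no minimum size, a replicate block, fewer groups in the fit, the mitochondrial set (shares over 2.5% in A375 and 7.5% in WM115), group means as the unit, clone 1.3 assigned to either region, and leaving out each library or clone.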

Additional observations from a re-analysis of the deposited data

Results flagged for a closer look

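Single libraries stood apart from the rest of their group for 9 of the 156 gene and group pairs with 4 or 5 libraries, judged by Dixon's gap ratio, which flags about 1 in 20 by chance. WM115 WT replicate 3 did so for HOXA2, HOXD8 and HOXD13. HOXA2 was at 1.57 TPM against 0.952 to 1.01 TPM in the other three libraries, HOXD8 at 8.97 against 11.9 to 12.4 TPM, and HOXD13 at 8.41 against 12.5 to 13.4 TPM. A375 WT replicate 2 was low for HOXB2 (36.8 against 46.7 to 47.2 TPM) and high for HOXC10 (58.8 against 46.2 to 47.9 TPM). In WM115 clone 1.1, HOXA6 was at 9.70 TPM in replicate 1 against 5.47 to 6.08 TPM, and HOXC6 at 11.4 TPM in replicate 4, below the other four. HOXC4 was at 17.7 TPM in A375 clone 4.1 replicate 2, below the rest, and HOXC13 at 18.6 TPM in A375 clone 1.2 replicate 1, above 16.4 to 16.7 TPM.

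Differences between clones with the same region deleted, tested directly with limma between the clones, are given for 9 HOX values. WM115 clone 1.2 was above clone 1.1 at HOXA3 (log2 difference 1.09), HOXA5 (1.27), HOXA6 (1.36), HOXB3 (1.31), HOXB5 (1.203) and HOXB8 (1.29). HOXB8 was higher in A375 clone 1.2 than in clone 1.1 (1.35) and lower in WM115 clone 4.2 than in clone 4.1 (-1.31). HOXB9 was lower in A375 clone 4.2 than in clone 4.1 (-1.24).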

How the results depend on the processing

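The 20 called HOX differences kept their direction under every alternative run for them. Counted as value and alternative, 277 kept their side of the threshold and 36 fell under it, mostly for HOXB8, HOXB9, HOXC5 and HOXD8. No count of called HOX genes changed in A375 clones 4.1 and 4.2 or WM115 clone 1.3 against WT, nor between regions. For counts of called HOX genes under alternative settings, here and above, the share of all genes is not given. Such counts show how stable the calls were and stand without a background. TPM keep no depth, so what depth limits could not be judged, and low genes are compressed by the pseudocount.

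With no minimum difference, called HOX genes numbered 4 in A375 clone 1.2 against WT, 10, 7, 9 and 12 in WM115 clones 1.1, 1.2, 4.1 and 4.2, 16 between the WT lines, 7 and 2 between the A375 R1 and R4 clone pairs, and 17 and 2 between those of WM115. With a pseudocount of 0.1 they were 2 (HOXB3, HOXB5), 2, 1 (HOXA7) and 5 in WM115 clones 1.1, 1.2, 4.1 and 4.2, and 2 between A375 clones 1.2 and 1.1. With a mean of at least 5 TPM, which leaves fewer genes tested, they were 5 between the lines, 0 in WM115 clone 4.2 and 0 between A375 clones 1.2 and 1.1. Median-of-ratios scaling gave 0 for WM115 clone 4.2 and for A375 clones 1.2 and 1.1, and without the filter, or with only the groups compared, both A375 clone pairs had 0; the cause was not tested.

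Leaving out 1 library at a time, called HOX genes numbered 0 to 1 in A375 clone 1.1 and WM115 clone 1.1, 0 to 3 in WM115 clone 1.2, 1 to 4 in WM115 clone 4.2, 7 to 9 between the lines, 0 to 2 in both A375 clone pairs, 5 to 7 between WM115 clones 1.2 and 1.1, and 0 to 1 between 4.2 and 4.1.

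With the replicate number as a block, in comparisons whose numbers do not pair the libraries, 1 HOX gene (HOXB3) was called in WM115 clone 1.1, 0 in WM115 clone 1.2 (HOXA6 1.15, limma adjusted p = 0.0908), 0 in both A375 clone pairs and 5 between WM115 clones 1.2 and 1.1. For A375 clone 4.1, whose numbers do, the block changed no call.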
